A study of Mus musculus with 60 samples.

Results

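Blastulas made by nuclear transfer (NT) from mouse embryonic fibroblasts (MEFs) were set against the MEFs themselves, so that the donor cell and the embryo grown from its nucleus were read in the same kind of library. The comparison used 6 of the 60 samples of the series, 3 NTM blastulas (NT embryos with a MEF nucleus) and 3 MEF samples, and it ran over autosomal genes. Of the 25848 autosomal genes of the table, 11821 had a mean of at least 0.5 RPKM over the 6 libraries and were tested. RPKM are reads scaled by the length of a gene's exons and by the reads of the library. The libraries of a group are biological replicates by the methods of the study, and the p-values measure the spread between them.

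The MEFs were of the BDF1 strain. By the methods of the study they were grown from fetuses, used at early passages and held in low-serum medium before transfer to arrest the cycle. Whether the MEFs that were sequenced had been held in low serum too was not given in the sources used here. Each MEF nucleus was placed in an enucleated BDF1 oocyte, and the reconstructed eggs were activated with strontium in the presence of cytochalasin B, treated with the histone deacetylase inhibitor Scriptaid and cultured in vitro. Each embryo library came from 1 embryo chosen by its morphology, and the sex of embryos and fibroblasts was not given in the sources used here. The series also holds blastulas made from cumulus cell (CC) nuclei (NTC blastulas), BDF1 CCs, in vivo blastulas and the earlier stages, which are used here where the fibroblast pair is set against them. By the same methods, apart from the donor cell, the NTC and NTM blastulas shared oocyte strain, activation and culture.

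A fibroblast makes and remodels the extracellular matrix, holds its shape with stress fibres and answers serum and injury with immediate early genes and chemokines. A blastula has an outer epithelium, the trophectoderm, which pumps fluid into the cavity, and an inner cell mass, from which the pluripotent epiblast and the primitive endoderm arise. For NT to yield a blastula, the donor programme has to be silenced and these embryonic programmes switched on from the same genome.

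The labels were first checked against markers of each cell type. All 12 MEF markers were above 1 RPKM in every MEF library, with a summed level of 5937 to 8587 RPKM, against 0.607 to 15.0 RPKM in the NTM blastulas. Of the 12 blastula markers, 11 were above 1 RPKM in every NTM blastula, with a summed level of 625 to 1313 RPKM, against 0 to 0.290 RPKM in the MEFs. The exception was Sox2. Markers of other cells of a fetus were at or near 0 in the MEFs: the endothelial genes Cdh5, Kdr, Tek and Tie1, the muscle genes Myod1 and Myog and the cartilage genes Acan, Col2a1 and Matn1 were at 0 in all 3 libraries. Macrophage and blood markers reached at most 4.94 RPKM in sum. Over the longer lists, endothelial genes summed to 10.9 to 48.8 RPKM in MEFs and 2.53 to 9.77 RPKM in the blastulas, and macrophage and blood genes to 4.94 to 23.03 and 0.929 to 6.47 RPKM. The methods of the study do not give the number of cells in a MEF library. In a library of several cells, fewer cells of a type and less RNA per cell cannot be told apart.

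The MEF libraries held 37074254 to 47829920 reads on genes and the NTM blastulas 17946568 to 20683071, as recovered from the steps between low RPKM values. Between 10941 and 13186 genes were above 0 in a MEF library and between 11498 and 13568 in an NTM blastula. Mitochondrial genes took 2.19% to 3.24% of the reads in MEFs, but 24.5%, 20.4% and 50.4% in NTM blastulas 1, 2 and 3. The third blastula stands apart in this. RPKM are scaled by the reads on all genes, mitochondrial ones included, and the part of these reads in the results was not tested beyond the rescaling and the counts without this library given below.

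The promoters of 4 genes are printed, from both sides of the comparison: Col3a1 and Ccn1, which were high in the MEFs, and Epcam and Cdx2, which were at 0 in all MEF libraries. Shown are the 250 bases before the RefSeq start in GRCm38.p6, in the direction of the gene, with matches to TEAD, octamer, TATA and CCAAT motifs, read on both strands, in capitals.
Col3a1: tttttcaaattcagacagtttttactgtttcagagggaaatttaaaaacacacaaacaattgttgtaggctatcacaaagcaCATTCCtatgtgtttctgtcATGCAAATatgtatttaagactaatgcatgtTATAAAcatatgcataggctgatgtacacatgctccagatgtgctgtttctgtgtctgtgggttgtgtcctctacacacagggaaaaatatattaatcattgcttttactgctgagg
Ccn1: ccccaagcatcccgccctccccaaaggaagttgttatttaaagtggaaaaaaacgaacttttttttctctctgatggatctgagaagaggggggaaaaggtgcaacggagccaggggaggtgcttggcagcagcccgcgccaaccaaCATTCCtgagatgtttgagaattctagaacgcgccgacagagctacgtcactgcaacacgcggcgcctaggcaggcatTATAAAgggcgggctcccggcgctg
Epcam: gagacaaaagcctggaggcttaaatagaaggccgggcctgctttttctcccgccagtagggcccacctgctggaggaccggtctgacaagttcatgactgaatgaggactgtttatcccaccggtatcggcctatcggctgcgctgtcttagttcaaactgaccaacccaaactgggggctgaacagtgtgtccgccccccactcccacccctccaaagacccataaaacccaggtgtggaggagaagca
Cdx2: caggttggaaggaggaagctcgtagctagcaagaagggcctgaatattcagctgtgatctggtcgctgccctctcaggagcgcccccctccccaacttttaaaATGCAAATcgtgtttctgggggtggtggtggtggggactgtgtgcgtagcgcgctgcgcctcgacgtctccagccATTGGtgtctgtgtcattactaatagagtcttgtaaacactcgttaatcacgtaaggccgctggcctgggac
The Col3a1 window, chr1:45311288-45311537 on the plus strand, holds no CpG and has a GC content of 35.2%. It carries a match to the TEAD motif, spelled GGAATG, on the opposite strand 168 to 163 bases before the start, an octamer, spelled ATGCAAAT, at 148 to 141 and a TATA box match at 117 to 112, where the TATA box was taken as TATAAA. The Ccn1 window, chr3:145649986-145650235 on the minus strand, holds 15 CpGs, a TEAD match on the opposite strand at 103 to 98 and a TATA box match at 25 to 20. The Epcam window, chr17:87635729-87635978 on the plus strand, has 8 CpGs and none of the motifs searched, among them the AP-1 motif, spelled TGANTCA, for dimers of Fos and Jun. The cyclic AMP response element, CRE, was searched as TGACGTCA and is in none of the 4 windows. The Cdx2 window, chr5:147307250-147307499 on the minus strand, has 13 CpGs, an octamer at 147 to 140 and a CCAAT match on the opposite strand at 72 to 68. Of all 25748 autosomal promoters, 12.5% held a TEAD match, 1.63% an octamer, 13.0% a TATA match, 34.3% a CCAAT match, 6.90% an AP-1 match, 1.66% a CRE and 92.0% at least 1 CpG. Such a match is a run of letters and says nothing of what binds there.

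Between MEF and NTM blastula, 2347 autosomal genes fell and 1312 rose, which is 19.9% and 11.1% of those tested. A gene was called where limma's adjusted p, taken over all genes tested, was under 0.05 and the difference on the log2(RPKM + 1) scale was at least 1. That scale understates the change of low genes. The shift was deep as well as broad: 984 genes fell and 480 rose by at least 3 on the log2 scale, and 136 fell and 55 rose by at least 6. The median over all genes tested was -0.47. When RPKM were rescaled to reads on nuclear genes alone, a choice made after seeing the data, 2040 genes fell and 1995 rose, so that 49.4% of the calls were rises against 35.9% with the values as deposited. Median-ratio scaling gave 2030 and 1924, or 48.7%, and moved the median of all genes to -0.14. The balance of falls and rises therefore depends on the scaling, while the medians of the fibroblast lists stayed between -2.02 and -7.20 under both. Without NTM blastula 3 the counts were 1759 lower and 1290 higher. Without blastula 1 the rises came to 862, and without blastula 2 to 801.

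**Figure D1:**
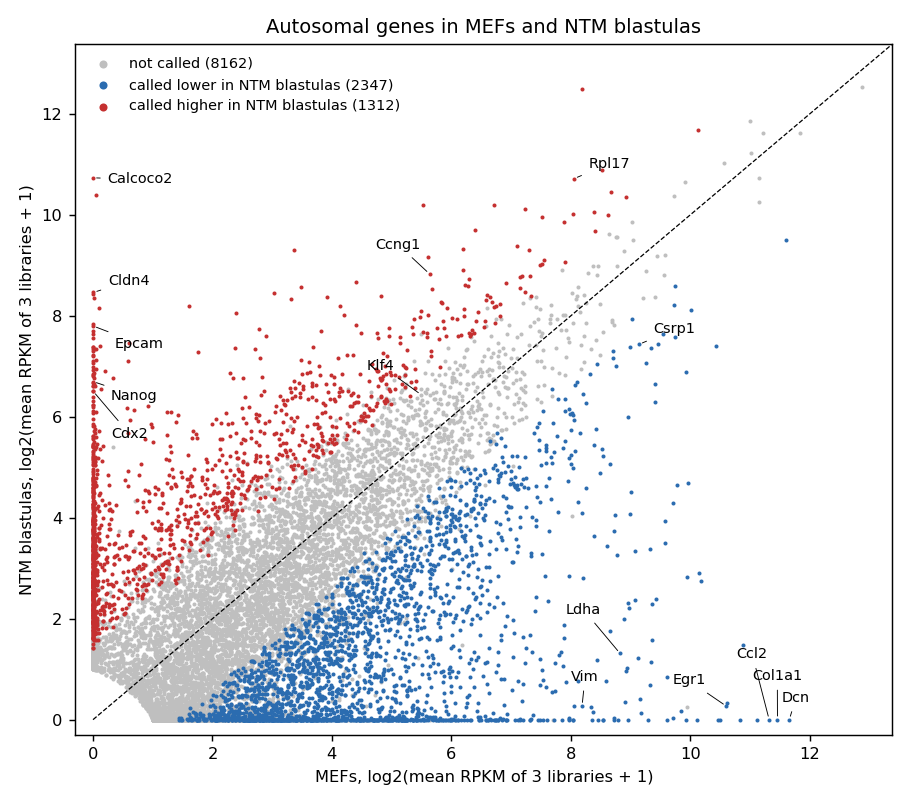
log2 of the mean RPKM + 1 of each tested autosomal gene over the 3 MEF libraries (x axis) and the 3 NTM blastulas (y axis), with called genes coloured by direction. The 2347 lower genes fill the area below the diagonal down to the axis, and the 1312 higher genes lie above it, over a range of MEF levels.

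Many genes went from a high level to none or back. There were 494 autosomal genes at 0 in all 3 NTM blastulas with a mean of at least 5 RPKM in MEFs, of which 355 were above 0 in every MEF library. In the other direction 235 genes were at 0 in all 3 MEF libraries with a mean of at least 5 RPKM in the blastulas, and 208 of them were above 0 in each blastula. For a gene at 0, the fold is a lower bound, taken against the level that 3 reads per library would give. By that bound Dcn was at least 121293-fold lower, Col1a1 at least 118900-fold, Col3a1 at least 114840-fold, Cxcl1 at least 26905-fold and Ccl2 at least 18717-fold. Calcoco2, an autophagy receptor, was at least 38551-fold higher in the blastulas, Epcam at least 6801-fold, Pramel6 at least 6636-fold, Trim43a at least 5516-fold and Tspan8 at least 4461-fold. Pramel6 and Trim43a belong to gene families with close copies, among which the counting could have split reads.

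Gene lists are described by the members tested. A member passed the filter if it was high in either group, so that the counts describe those members and not the whole list. Under the filter were 14 of 53 autosomal mesenchymal transcription factors, 3 of 31 pluripotency genes, 6 of 30 trophectoderm genes, 9 of 28 primitive endoderm genes, 7 of 48 epithelial genes and 24 of 42 germ cell genes. All autosomal matrix, cytoskeletal and cycle genes of the lists were tested.

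The matrix list had the lowest median of the 27 lists. Of 39 matrix and secreted genes tested, 37 fell and none rose, where 19.9% of all genes fell, and their median difference was -7.16 against -0.47 over all genes. With the 18 members at 0 in the blastulas set at their bounds, the median was -9.05. The summed level of the list was 16297 to 21512 RPKM in MEFs and 11.1 to 33.5 RPKM in the blastulas. Col1a1, the main chain of type I collagen, was at 2140, 2980 and 3335 RPKM in the MEFs and at 0 in all 3 NTM blastulas, a difference of -11.44 ± 0.35 (SE, n = 3 per group, adjusted p = 2.34e-06). Its partner chain Col1a2 was at 620, 902 and 988 RPKM in the MEFs and at 0, 0 and 0.0545 RPKM in the blastulas. Col3a1, the collagen of loose tissue whose promoter is printed above, was at 1558, 1971 and 1931 RPKM against 0 in each blastula. Dcn, a proteoglycan that binds collagen fibrils, was the largest fall of the genes named, from 3343, 2982 and 3371 RPKM to 0, 0 and 0 (-11.66 ± 0.33). Serpinf1, a secreted serpin, went from 1342, 1357 and 1558 RPKM to 0 in each blastula. Loxl2, at -1.62 ± 0.64, and Mfap5, at -0.58 ± 0.72, were the members not called. The groups did not overlap for 38 of the 39 genes, where 29% of all genes tested were lower with no overlap.

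**Figure D2:**
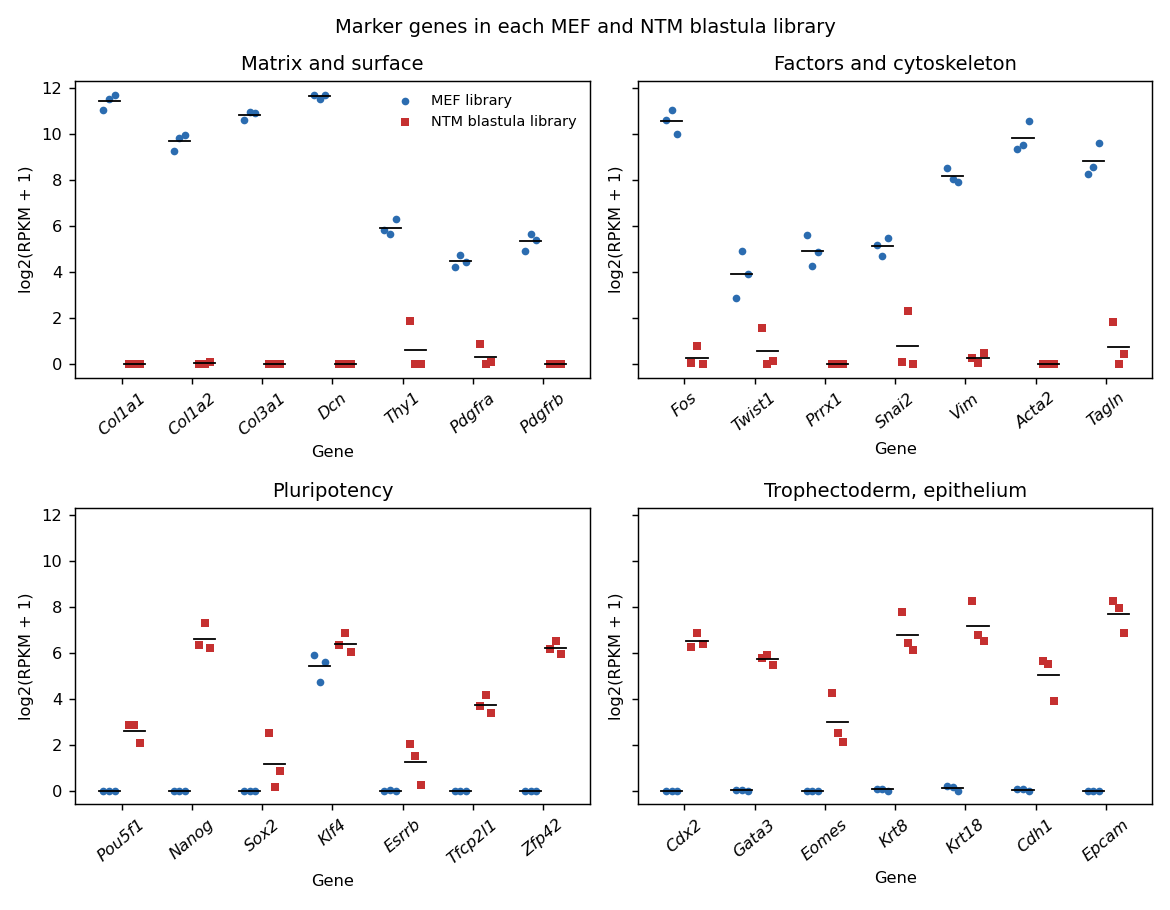
Level of named marker genes in each of the 3 MEF and 3 NTM blastula libraries (points), on the log2(RPKM + 1) scale. The fibroblast genes sit high in all 3 MEFs and at or near 0 in the blastulas, and most blastula genes show the reverse. Klf4 was present in the MEFs too, and Sox2 and Esrrb were low in the blastulas.

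Surface proteins of mesenchymal cells went the same way, with 26 of 27 lower, none higher and a median of -4.27 (-5.89 with 10 members at their bounds). Cdh11, the cadherin of mesenchymal cells, was at 176, 142 and 237 RPKM in MEFs and at 0 in every blastula. Cd248, a stromal glycoprotein, was at 156, 148 and 176 RPKM against 0.0435, 0 and 0, and Tgfbr3, a co-receptor for TGF-beta, at 92.0, 89.4 and 98.2 RPKM against 0.0936, 0.0630 and 0. The PDGF receptors, which pass on the growth signal on which cultured fibroblasts depend, were modest in MEFs but still fell. Pdgfra was at 17.8, 25.7 and 20.9 RPKM against 0.839, 0.00514 and 0.0627, and Pdgfrb at 29.5, 49.4 and 41.4 RPKM against 0 in each blastula. Thy1, a glycoprotein used to sort fibroblasts, was at 56.6, 49.6 and 77.0 RPKM against 2.67, 0 and 0, so that a low level was read in the first blastula alone.

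Among transcription factors of mesenchymal cells, 29 of 39 fell and none rose (median -3.33, or -4.34 with 13 members at their bounds). The largest were immediate early genes, which serum and handling of cells induce within minutes. Egr1 was at 1950, 1445 and 1275 RPKM in MEFs and at 0.485, 0.126 and 0 in the blastulas (-10.33 ± 0.38), Fos at 1571, 2086 and 1039 RPKM against 0.0474, 0.701 and 0, and Junb at 777, 638 and 522 RPKM against 0.969, 2.66 and 0. How the sequenced MEFs were handled was not given in the sources used here. Regulators of mesenchymal identity were lower to begin with. Prrx1, a homeobox factor of limb and connective tissue, went from 47.5, 18.2 and 28.0 RPKM to 0 in every blastula (-4.91 ± 0.49, adjusted p = 0.000231). Snai2, which represses epithelial genes, was at 35.2, 25.3 and 44.2 RPKM against 0.0549, 3.96 and 0, with a trace in the second blastula. Twist1, a bHLH factor of the mesenchyme, was at 6.28, 29.2 and 13.99 RPKM against 2.00, 0 and 0.0898 (-3.33 ± 0.68, adjusted p = 0.00732).

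The cytoskeletal list, which holds actin, contractile and serum response genes, had 26 of 36 members lower and none higher, with a median of -3.42. Acta2, smooth muscle actin, was at 657, 743 and 1528 RPKM in MEFs and at 0 in all blastulas, and Tagln, an actin binding protein of contractile cells, at 304, 382 and 771 RPKM against 2.53, 0 and 0.335. Ccn1, a matricellular target of the TEAD factors, was at 2092, 1711 and 1852 RPKM in MEFs and kept a level of 1.74, 1.99 and 1.60 RPKM in the blastulas (-9.40 ± 0.32). Vim, the intermediate filament of mesenchymal cells, fell from 367, 261 and 244 RPKM to 0.1997, 0.0326 and 0.387. The other 10 members did not pass the test, and the summed level of the list was 7375 to 9328 RPKM in MEFs and 955 to 1279 RPKM in the blastulas.

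Hox genes, which record the position of a cell along the body axis, were sparse. Of 34 autosomal members listed 19 were below the filter. Of the 15 tested 6 fell and none rose (median -2.33, or -4.83 with 9 members at their bounds), against 19.9% and 11.1% of all genes. Without any 1 NTM blastula 4 fell, and in 1 fit over all 20 groups 12 fell. Hoxc9 was at 13.5, 5.39 and 5.58 RPKM in MEFs and Hoxc6 at 7.64, 4.94 and 2.94 RPKM, both against 0 in all blastulas. Hoxd8 varied widely between the MEF libraries, at 9.04, 36.3 and 0.853 RPKM, and against 0.0203, 0 and 0.247 it passed narrowly (adjusted p = 0.0465).

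Chemokines and antigen presentation made a second large block. Of 37 genes for MHC class I, chemokines and interferon response, 23 fell and none rose (median -2.86, or -5.00 with 17 members at their bounds), and their summed level went from 6797 to 11698 RPKM in MEFs to 51.0 to 98.0 RPKM. Ccl2, which draws monocytes, was at 3565, 2357 and 1754 RPKM against 0 in each blastula, and Cxcl1, which draws neutrophils, at 2713, 2136 and 1849 RPKM against 0. Ccl7 was at 1970, 1136 and 1256 RPKM and Cxcl5 at 986, 588 and 1760 RPKM in the MEFs, both at 0 in the blastulas. The class I genes kept a level in the blastulas. B2m, the invariant light chain of MHC class I, fell from 561, 331 and 374 RPKM to 9.46, 9.94 and 17.8 RPKM, and H2-K1, a heavy chain with close copies in the genome, from 47.3, 110 and 27.8 RPKM to 21.2, 7.07 and 9.55 RPKM (-2.12 ± 0.62, adjusted p = 0.0321).

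Ligands, receptors and binding proteins of growth factors were lower in 31 of 51 cases and higher in 4 (median -2.39), against 19.9% and 11.1% of all genes. Without MEF 1, MEF 2, NTM blastula 2 or NTM blastula 3 the rises came to 2. The binding proteins of IGF, which fibroblasts secrete, were among the largest falls: Igfbp7 was at 579, 646 and 1117 RPKM and Igfbp3 at 380, 591 and 292 RPKM in MEFs, and both at 0 in the blastulas. Against this direction, the ligand Pdgfa rose from 0.00761, 2.66 and 0.0268 RPKM to 62.5, 84.6 and 73.2 RPKM (5.57 ± 0.59), while its receptor Pdgfra fell. Erbb3, a receptor of the EGF receptor family, rose from 0 in each MEF library to 22.6, 30.7 and 13.8 RPKM. The other rises were the receptors Bmpr1a, from 6.42, 7.88 and 14.1 RPKM to 26.1, 30.6 and 24.8 RPKM, and Fgfr4, from 0 to 1.82, 1.69 and 1.56 RPKM.

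**Figure D3:**
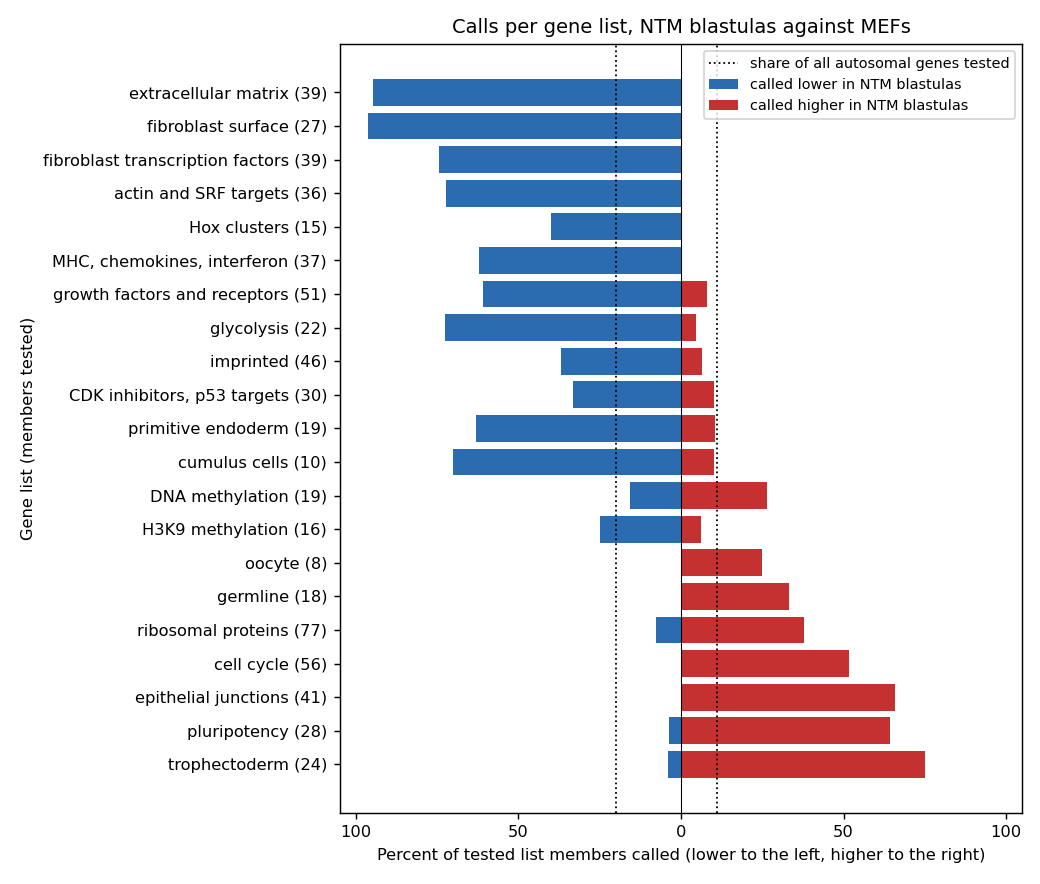
Percent of the tested members of each gene list called lower (left) and higher (right) in NTM blastulas against MEFs, with dotted lines for the background of all autosomal genes (19.9% lower, 11.1% higher). Matrix and surface lists lie far to the lower side, and pluripotency, trophectoderm and epithelial lists to the higher side.

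Of 28 pluripotency genes tested 18 rose and 1 fell, where 11.1% of all genes rose, with a median of 3.11, or 7.07 with the 14 members at 0 in MEFs set at their bounds. Nanog, the homeobox factor that guards the epiblast state, was at 0 in all MEFs and at 78.7, 158 and 72.5 RPKM in the blastulas (6.61 ± 0.46, adjusted p = 4.9e-05). Zfp42, a zinc finger marker of naive pluripotency, was at 0 in MEFs and at 70.9, 90.9 and 61.2 RPKM, and Tfcp2l1, a factor of the naive network, at 11.8, 16.6 and 9.52 RPKM. Pou5f1, the POU factor known as Oct4, was switched on from 0 but only to 6.30, 6.12 and 3.18 RPKM (2.59 ± 0.47, adjusted p = 0.00414). The largest rises were Fbxo15, an F-box gene and Oct4 target, at 315, 592 and 73.7 RPKM, Dppa2 at 133, 267 and 83.6 RPKM and Klf5 at 130, 166 and 123 RPKM, with at most 0.109 RPKM in a MEF library. In each of these genes the third blastula, with 50.4% mitochondrial reads, had the lowest value.

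Of the other 10 members, Sox2, Esrrb, Klf4 and Klf2 are described here. Sox2, the partner of Oct4, was at 0 in MEFs and at 4.63, 0.125 and 0.799 RPKM in the blastulas, and Esrrb, an orphan receptor, at 3.07, 1.81 and 0.168 RPKM. In both the blastulas varied so much that the differences of 1.17 ± 0.66 and 1.24 ± 0.58 did not pass (adjusted p = 0.211 and 0.142). Klf4, a factor used to make induced pluripotent cells, was already at 59.2, 25.8 and 47.5 RPKM in MEFs and at 80.0, 113 and 63.3 RPKM in the blastulas, which did not overlap but differed by 0.98 ± 0.44 (adjusted p = 0.127). Klf2, its relative, was the one that fell, from 45.7, 60.02 and 95.9 RPKM to 21.7, 3.93 and 1.60 RPKM, and it was not called without MEF 3 or NTM blastula 2.

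The trophectoderm list gave the same count, 18 higher and 1 lower of 24 (median 3.59, or 6.96 with 14 members at their bounds). Cdx2, the homeobox factor that sets the lineage, was at 0 in MEFs and at 75.2, 114 and 81.1 RPKM in the blastulas (6.49 ± 0.41, adjusted p = 3.15e-05). Gata3, which works beside it, rose from at most 0.0339 RPKM to 53.3, 57.9 and 43.1 RPKM, and Eomes, a T-box factor of the same lineage, from 0 to 18.2, 4.67 and 3.39 RPKM. The keratins of this first epithelium rose together. Krt8 was at 0.0526, 0.0598 and 0 RPKM in MEFs and at 214, 84.3 and 68.4 RPKM in the blastulas, and its partner Krt18 at 0.136, 0.116 and 0 RPKM against 305, 109 and 89.0 RPKM. Tspan8, a tetraspanin, reached 350, 134 and 79.1 RPKM and Dppa1 288, 100 and 114 RPKM, both from 0, so that the first blastula was highest in all 4 genes. Lgals3, a lectin of many cell types that the list holds for its place in trophoblast, went against it, from 187, 94.5 and 132 RPKM in MEFs to 12.7, 11.8 and 5.18 RPKM.

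Genes of junctions, polarity and cavitation rose in 27 of 41 cases and none fell (median 2.57, or 3.38 with 10 members at their bounds). Cdh1, the epithelial cadherin of compaction, went from at most 0.0363 RPKM to 49.1, 45.0 and 14.1 RPKM (4.99 ± 0.56). Epcam, an adhesion molecule of epithelia, went from 0 in all MEFs to 306, 244 and 116 RPKM. Cldn4, a tight junction claudin that also stands in the trophectoderm list, went from at most 0.0131 RPKM to 449, 452 and 156 RPKM (8.30 ± 0.51), and Crb3, a polarity protein of the apical membrane, from at most 0.0607 RPKM to 83.6, 160 and 45.3 RPKM. Of the cadherins, Cdh11 was at 0 where Cdh1 was high.

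In the primitive endoderm list 12 of 19 members were lower and 2 higher (median -1.80), against 19.9% and 11.1% of all genes. The falls came to 7 of 20 tested without MEF 3 and to 8 without MEF 2, NTM blastula 2 or NTM blastula 3, and 10 fell and 3 rose under both other scalings. The rises came to 1 without MEF 1, MEF 2, NTM blastula 1 or NTM blastula 2. Among the falls were Sparc, a matrix glycoprotein, and the basement membrane collagens Col4a1 and Col4a2. Sparc was at 1107, 1024 and 1249 RPKM against 12.3, 0.0918 and 7.18, Col4a1 at 34.4, 18.3 and 44.6 RPKM against 0.711, 0.212 and 0.0780, and Col4a2 at 51.5, 40.8 and 50.5 RPKM against 1.86, 0.708 and 0.0146. The first regulator of the lineage rose. Gata6 was at 0 in MEFs and at 100.9, 102 and 30.9 RPKM in the blastulas (6.12 ± 0.56), and Dab2, an endocytic adaptor, rose from 17.9, 31.6 and 36.9 RPKM to 80.2, 94.5 and 66.3 RPKM (1.49 ± 0.41, adjusted p = 0.025). The later regulators Gata4 and Sox17 were under the filter: Gata4 was at 0, 0 and 0.136 RPKM and Sox17 at 1.74, 0 and 0 RPKM in the NTM blastulas, where the in vivo blastulas averaged 13.1 and 1.23 RPKM. Neither differed between NTM and in vivo blastulas by limma (adjusted p = 0.215 and 0.623), and the in vivo blastulas ran from 0 to 34.1 RPKM of Gata4.

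Of the writers, readers and erasers of DNA methylation, 3 fell and 5 rose of 19 tested, against 19.9% and 11.1% of all genes, and the median of -0.28 was near that of all genes. The number of rises came to 2 without MEF 2, NTM blastula 1 or NTM blastula 2 and to 3 without MEF 3. Its sign turned under both other scalings, to 0.18 on nuclear reads and 0.15 by median ratio. Dppa3, which protects methylation in the zygote, rose from at most 0.0532 RPKM to 48.2, 57.0 and 45.4 RPKM (5.65 ± 0.41). The de novo enzyme Dnmt3b rose from 0.00929, 1.97 and 0 RPKM to 33.4, 17.0 and 7.37 RPKM, and the oxidase Tet1 from 1.63, 1.31 and 0.452 RPKM to 17.3, 5.97 and 4.87 RPKM (2.14 ± 0.58, adjusted p = 0.0239). The maintenance enzyme Dnmt1 varied from 0 to 19.12 RPKM within the MEFs and stood at 3.28, 0.678 and 0.0920 RPKM in the blastulas (-1.23 ± 1.05, adjusted p = 0.394). Dnmt3a was at 4.06, 4.33 and 2.52 RPKM against 2.21, 1.85 and 1.11 (adjusted p = 0.238), and Dnmt3l was under the filter. The falls were in the stress gene Gadd45b, from 354, 293 and 230 RPKM to 2.16, 15.1 and 0.764 RPKM, in Gadd45a, from 51.9, 77.4 and 22.99 RPKM to 1.90, 6.83 and 1.56 RPKM and in Zfp57, a zinc finger that guards imprints, from 11.3, 9.31 and 16.1 RPKM to 2.78, 2.49 and 0.549 RPKM. Of 16 H3K9 methylation genes 4 fell and 1 rose, where 19.9% and 11.1% of all genes did. The falls came to 2 without MEF 2, NTM blastula 2 or NTM blastula 3, and Kdm3b, the one that rose, was not called without MEF 2, NTM blastula 1 or NTM blastula 2. The median of -0.15 turned to 0.26 by median ratio and 0.30 on nuclear reads. The demethylase Kdm4a went from 21.2, 21.6 and 11.6 RPKM to 0.00964, 0.0535 and 0.0251, Kdm4b from 7.74, 9.34 and 13.7 RPKM to 0.455, 0.158 and 0.00988, and Kdm3b rose from 1.72, 2.04 and 4.37 RPKM to 15.2, 14.8 and 8.63.

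Of 56 proliferation genes 29 rose, none fell and 27 did not pass the test (median 2.16), where 11.1% of all genes rose. The rises numbered 20 without NTM blastula 1, 21 without NTM blastula 2 and 22 without MEF 3, where 1 gene fell, and 35 under both other scalings. The list had a summed level of 79.9 to 301 RPKM in MEFs and 798 to 1866 RPKM in the blastulas. Ccnb1, the mitotic cyclin, was at 0.883, 0.601 and 0 RPKM in MEFs and at 192, 127 and 92.5 RPKM in the blastulas (6.52 ± 0.48). Cdca8, a subunit of the chromosomal passenger complex, went from at most 0.151 RPKM to 101.2, 137 and 42.0 RPKM, and Cdc20, the activator of the anaphase complex, from 0.343, 6.83 and 0 RPKM to 208, 218 and 35.6 RPKM. Kif20a, a mitotic kinesin, did not follow, since the MEF libraries held 67.2, 0.0568 and 11.6 RPKM and overlapped with the blastulas (-0.98 ± 1.49, adjusted p = 0.625).

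Among inhibitors of cyclin dependent kinases and p53 targets 10 of 30 fell and 3 rose (median -1.19), against 19.9% and 11.1% of all genes. Without MEF 2, 5 rose. Cdkn1c, an imprinted CDK inhibitor, was at 198, 99.1 and 1618 RPKM in MEFs and at 1.59, 0.133 and 0.1002 RPKM in the blastulas, and Gas1, a growth arrest gene, at 107, 207 and 163 RPKM against 0 in each. Perp, a p53 target in epithelial junctions, rose from 0 to 174, 112 and 201 RPKM. Ccng1, another p53 target, rose from 77.1, 53.3 and 15.7 RPKM to 379, 527 and 458 RPKM (3.45 ± 0.56), where the in vivo blastulas averaged 15.0 RPKM. Between NTM and in vivo blastulas Ccng1 differed by 5.48 ± 0.94, which did not pass by limma (adjusted p = 0.0507). In settings added after seeing the data, it passed on nuclear reads (adjusted p = 0.0256) but not by median-ratio scaling (adjusted p = 0.077). Rb1, which restrains entry into S phase, rose from at most 0.0552 RPKM to 1.78, 2.27 and 4.79 RPKM (1.87 ± 0.49, adjusted p = 0.0221). Cdkn1a, the p21 inhibitor, had overlapping groups, at 46.1, 22.1 and 4.25 RPKM against 11.3, 25.3 and 12.7, and Cdkn2a was at 0 in all 6 libraries.

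Imprinted genes, which are read from 1 parental copy, fell in 17 and rose in 3 of 46 cases (median -1.36), against 19.9% and 11.1% of all genes. Without NTM blastula 1 they rose in 1. H19, a maternally expressed RNA, was at 247, 443 and 823 RPKM in MEFs and at 0, 0 and 10.9 RPKM in the blastulas (-7.62 ± 0.97). Meg3, another, fell from 17.3, 18.7 and 12.6 RPKM to 0.148, 0 and 0. Igf2, the paternally expressed growth factor beside H19, was at 5.56, 6.31 and 54.4 RPKM against 4.77, 0.306 and 0, and did not pass (-2.82 ± 0.98, adjusted p = 0.0605). Gab1, a docking protein of receptor signalling, rose from 0.00488, 3.21 and 3.02 RPKM to 10.4, 14.5 and 10.1 RPKM. Sfmbt2, a Polycomb protein of the placenta, rose from 0.335, 0 and 0 RPKM to 4.27, 3.45 and 3.47 RPKM, and Ddc, a decarboxylase of amine synthesis, from 0 to 1.87, 2.54 and 1.03 RPKM (adjusted p = 0.0494).

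Of 22 glycolysis and lactate genes 16 fell and 1 rose (median -2.40), where 19.9% and 11.1% of all genes did. Ldha, which turns pyruvate into lactate, was at 438, 406 and 514 RPKM in MEFs and at 1.27, 2.42 and 0.762 RPKM in the blastulas (-7.56 ± 0.40). Eno1 was at 144, 138 and 191 RPKM against 3.64, 1.79 and 1.20, and Pkm at 733, 731 and 1052 RPKM against 31.3, 16.4 and 8.09. The glucose transporter Slc2a3 went the other way, from 0, 0.149 and 0 RPKM to 54.7, 63.2 and 12.1 RPKM (5.11 ± 0.65). Ribosomal protein genes were higher in 29 and lower in 6 of 77 cases (median 0.72), against 11.1% and 19.9% of all genes. By median-ratio scaling 40 were higher and 3 lower (median 1.23), on nuclear reads 42 and 3 (median 1.26), and 2 were lower without NTM blastula 2. With a difference of at least 2 on the log2 scale 6 were higher and 3 lower. Many have near-identical copies between which reads can be split, so single members are uncertain. Rpl17 was at 316, 251 and 227 RPKM against 1495, 1734 and 1823, and Rps12 at 121, 79.1 and 50.8 RPKM against 757, 644 and 1078.

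Germ cell genes rose in 6 of 18 cases and fell in none (median 1.27), against 11.1% and 19.9% of all genes. Their mean of log2(RPKM + 1) was 0.33 in MEFs, 3.60 in NTM 1-cell embryos and 1.97 in NTM blastulas. The list as a whole thus stood above the MEF level and below the 1-cell level, which need not hold for each member. Tex19.1, a gene of germ cells and placenta, went from at most 0.0380 RPKM to 12.4, 20.004 and 13.7 RPKM. It averaged 2.98 RPKM in NTM 1-cell embryos, so that it was above that level too. Of 8 oocyte genes tested, 2 rose and none fell (median 0.13), where 11.1% and 19.9% of all genes did. Khdc3, of the maternal complex under the egg membrane, was at 0 in MEFs and at 46.9, 39.95 and 19.6 RPKM in the blastulas, and Ooep, of the same complex, at 0.0555, 0.643 and 0 RPKM against 23.7, 11.2 and 9.07. Cumulus cells surround the egg that receives the nucleus. Of their 10 genes tested 7 fell and 1 rose (median -2.87), against 19.9% and 11.1% of all genes. Without MEF 2 or without any 1 NTM blastula 4 fell. The 7 defining cumulus markers were at 0 in all NTM blastulas. Cyp19a1 and Foxl2 were also at 0 in the MEFs, while Ptx3, a matrix pentraxin, was at 406, 1003 and 467 RPKM and Tnfaip6, a hyaluronan binding protein, at 88.2, 178 and 62.1 RPKM in MEFs. Amhr2, a receptor of anti-Mullerian hormone, rose from at most 0.0119 RPKM to 2.45, 6.72 and 2.83 RPKM. Of the remaining lists, endothelial genes fell in 2 of 4 cases, where 19.9% of all genes fell. No macrophage, muscle or neural gene tested was called, and the single cartilage gene and the single keratinocyte gene tested rose. The latter were Alpl and Sfn, of which Alpl was not called without MEF 1, MEF 2, MEF 3 or NTM blastula 3. The endothelial falls were Flt1, at 8.76, 13.1 and 7.06 RPKM against 0 in each blastula, and Eng, at 22.9, 35.5 and 3.81 RPKM against 0.674, 0.776 and 0, with 1 fall without NTM blastula 3.

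Genes outside the lists completed the 10 largest rises. Calcoco2 was the highest of them, at 0 in MEFs and at 1874, 2351 and 885 RPKM in the blastulas (10.62 ± 0.45, adjusted p = 6.59e-06). Pramel6, of a family expressed in early embryos, was at 230, 367 and 86.9 RPKM, Trim43a at 165, 347 and 85.8 RPKM and Dkkl1, a secreted relative of the Dickkopf proteins, at 169, 236 and 94.8 RPKM, each from 0 in all MEFs. Tdrp went from at most 0.0632 RPKM to 211, 173 and 100 RPKM. The third blastula was lowest in each of these 5 genes.

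The change was not concentrated on a chromosome: between 26.6% of the tested genes of chromosome 12 and 35.3% of those of chromosome 19 were called.

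Through the NTM stages the fibroblast matrix was low from the first stage sampled. By the methods of the study the MEF nucleus alone was injected into the oocyte. The 1-cell level therefore cannot show whether or when the donor programme was silenced. The mean of log2(RPKM + 1) over the 39 matrix genes tested was 7.36 in MEFs, 0.42 at the 1-cell stage, 0.48 at the 2-cell stage, 0.34 at the 4-cell stage, 0.18 at the 8-cell stage, 0.17 in morulae and 0.27 in blastulas, with 0.20 in in vivo blastulas. Col3a1 averaged 0 RPKM at each stage before the blastula. Dcn was scattered, at 19.4, 0 and 7.34 RPKM in the 4-cell embryos and 0, 0 and 14.3 RPKM in the 8-cell embryos. Embryonic genes rose at different times. The pluripotency list was at 0.76 in MEFs, 2.17 at the 1-cell stage, 4.04 at the 8-cell stage, 3.80 in morulae and 4.07 in blastulas, whereas the trophectoderm list stayed between 0.56 and 1.84 up to the morula and stood at 4.38 in blastulas. Nanog averaged 0 RPKM at the 1-cell and 2-cell stages, 1.94 at the 4-cell stage, 9.29 at the 8-cell stage and 33.9 in morulae. Cdx2 followed with 1.36, 5.57 and 18.4 RPKM at the 4-cell, 8-cell and morula stages. Klf4, present in MEFs, averaged 1.87 RPKM at the 1-cell stage, 44.1 at the 2-cell stage and 201 in morulae. Glycolysis genes were at 4.67 in MEFs, 2.02 at the 1-cell stage, 1.41 in morulae and 2.28 in blastulas. The oocyte list read 7.25 in 1-cell embryos and 1.64 in blastulas. Its members did not all follow this course. Ooep averaged 271 RPKM in 1-cell embryos and 1.33 RPKM in morulae, but Khdc3 1.29 and 17.9 RPKM, so the list does not read maternal RNA alone.

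**Figure D4:**
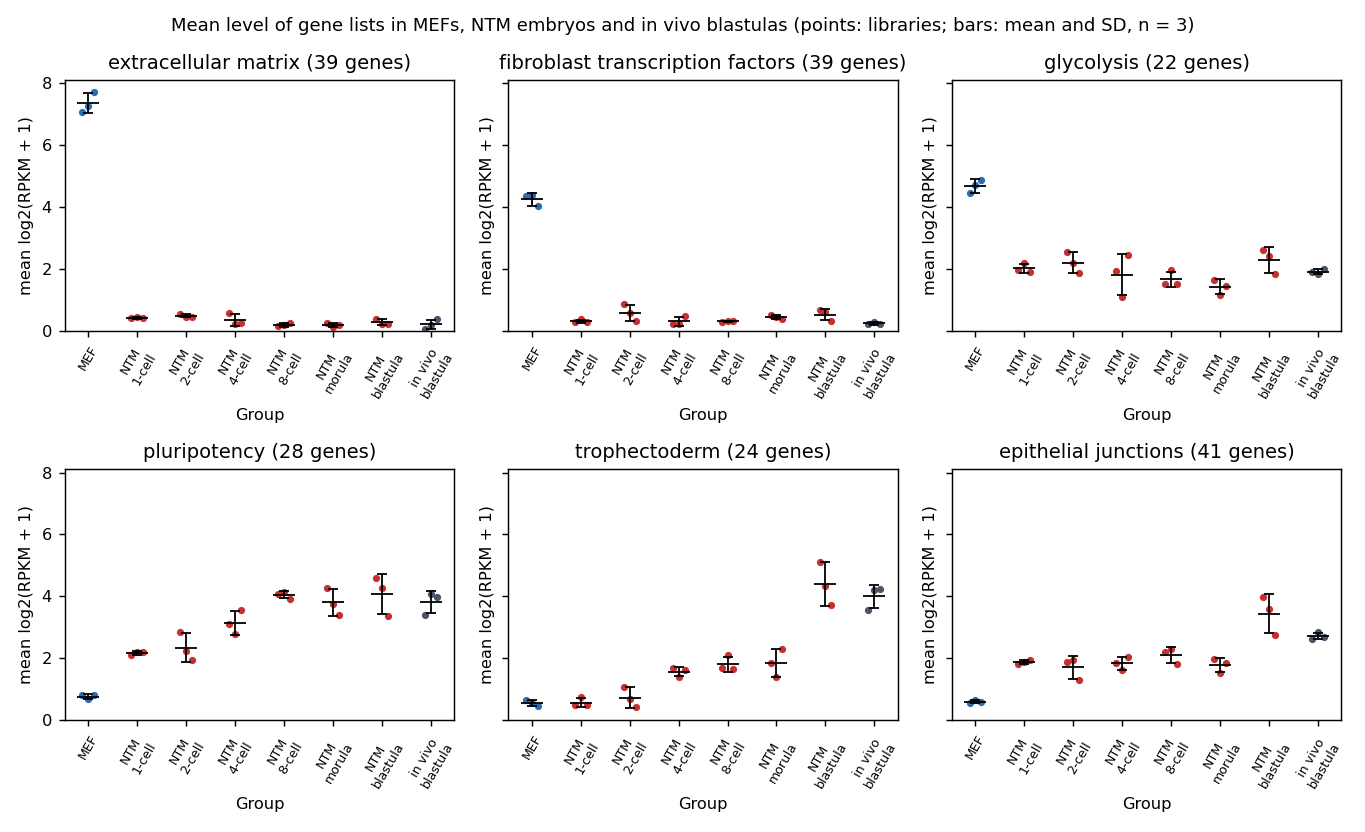
Mean log2(RPKM + 1) of gene lists in each library (points) of MEFs, the NTM stages and in vivo blastulas, with bars for the mean and SD (n = 3). The matrix list is at 7.36 in MEFs and at 0.42 at the 1-cell stage, where the cytoplasm is that of the oocyte. The trophectoderm list rises between the morula (1.84) and the blastula (4.38).

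The same comparison was made for the other donor, NTC blastula against CC, with no library in common. There 1576 of 11028 genes fell and 1093 rose, or 14.3% and 9.91%. The embryonic lists moved in this pair too: pluripotency genes rose in 15 and fell in 0 of 26 cases, trophectoderm genes in 13 and 1 of 23, epithelial genes in 18 and 2 of 41, and glycolysis genes fell in 15 of 24 cases and rose in 1. Whether the change differed between the donors was tested by the interaction term, the NTM change minus the NTC change. It was negative for 464 and positive for 207 of 12056 genes, or 3.85% and 1.72%. The matrix list held 27 of the negative calls among 39 tested and no positive one, the surface list 16 against 1 of 28 and the mesenchymal transcription factors 14 against 1 of 38. Pluripotency had 1 negative and 0 positive calls of 28, trophectoderm 0 and 2 of 25, and the cycle list 0 and 1 of 56. The 2 trophectoderm genes were Krt8 and Krt18, which CCs held at 58.2 and 111 RPKM on average, the pluripotency gene was Klf4 and the cycle gene Cdca8. For Col1a1 the interaction was -10.23, with 1.31 RPKM in CCs and 0 in the NTC blastulas. Fos, at 714 RPKM in CCs, had an interaction of -1.36 that did not pass (adjusted p = 0.37).

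Whether the donors could still be told apart in the blastulas was read on the genes that separated them. Of the autosomal genes 466 were called higher in MEFs than in CCs, with a median level of 35.4 RPKM in MEFs and 0.0625 RPKM in CCs. Their median level was 0.405 RPKM in NTM blastulas and 0.425 RPKM in NTC blastulas, 279 averaged below 1 RPKM in the NTM blastulas and 143 were at 0 in all 3. Of the 231 that could be tested between the blastulas, 118 or 51.1% were higher in NTM, against 52.0% of all 9803 genes tested, and their median difference was 0.02 (quartiles -0.51 and 0.48), the same as that of all genes. None was called, nor was any autosomal gene in either direction (0% of 9803). Of the 9803, 294 had an unadjusted p under 0.05 by limma, a share below that threshold itself. For the 266 genes higher in CCs the median was -0.04 over 187 tested. Across 8024 genes the donor difference and the blastula difference were related by a Pearson r of 0.016 and a Spearman rho of 0.016, given as a description since genes share their libraries. With 3 embryos per group, these values set no bound on single genes: the median of the 231 genes ran from -0.16 to 0.23 when 1 library was left out, and its SD over the NTM blastulas was 0.39.

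**Figure D5:**
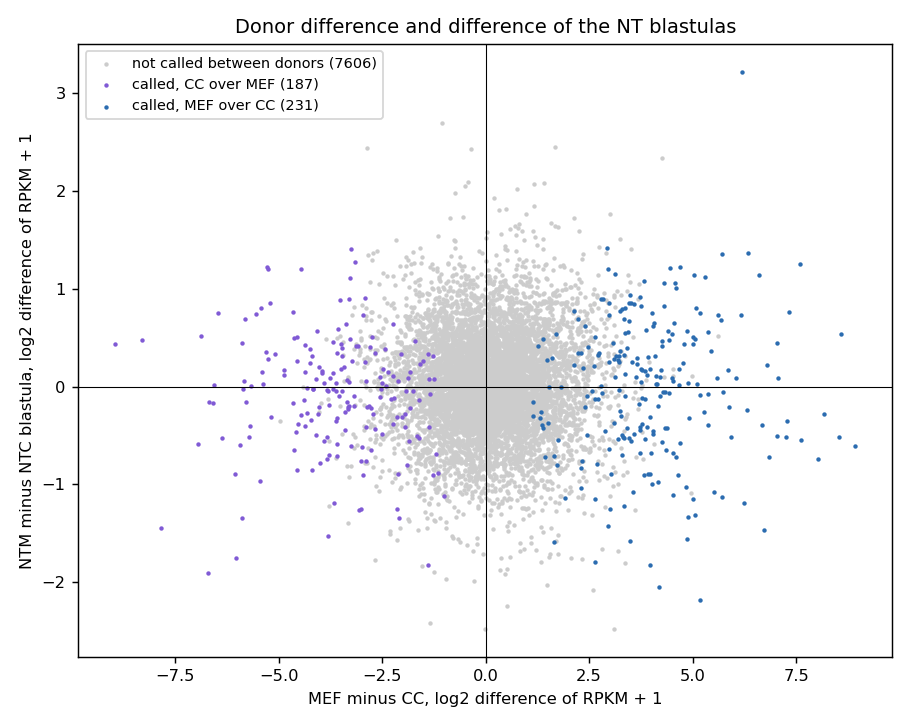
Difference between MEF and CC (x axis) and between NTM and NTC blastulas (y axis) of each gene tested in both, on the log2(RPKM + 1) scale, with genes called between the donors coloured by direction. The donor difference spreads along the x axis, while the 231 genes higher in MEFs centre on 0.02 on the y axis.

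The 5 genes at least 8 times higher in MEFs than in CCs with the highest levels in NTM blastulas were Csrp1, Phlda3, Rnf115, Rab21 and Rras2. Csrp1, an actin associated LIM protein, was at 428, 517 and 748 RPKM in MEFs and at 190, 211 and 116 RPKM in NTM blastulas (-1.71 ± 0.35, adjusted p = 0.00729), with a mean of 123 RPKM in NTC blastulas. Phlda3, a p53 target that restrains Akt, was at 73.3, 129 and 43.8 RPKM in MEFs and at 122, 198 and 222 RPKM in NTM blastulas, and averaged 111 RPKM in NTC blastulas but 1.03 RPKM in in vivo blastulas (NTM against in vivo 6.60 ± 0.72, adjusted p = 0.03). Rnf115, a ubiquitin ligase, rose from 13.3, 28.3 and 22.1 RPKM to 84.0, 197 and 59.8 RPKM. The small GTPases Rab21 and Rras2 rose as well, Rab21 from 47.9, 27.8 and 15.0 RPKM to 134, 125 and 91.2 RPKM and Rras2 from 21.2, 9.19 and 50.6 RPKM to 94.1, 146 and 84.8 RPKM. In NTC blastulas, whose donor held under 1 RPKM of each on average, Rnf115 averaged 110, Rab21 109 and Rras2 78.8 RPKM. NTM 1-cell embryos already averaged 397 RPKM of Rab21 and 281 RPKM of Rras2, and NTM morulae 29.6 and 61.4 RPKM. At the 1-cell stage Rnf115 averaged 45.0, Csrp1 4.33 and Phlda3 0 RPKM.

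Against the in vivo blastulas, limma called 17 autosomal genes lower and 49 higher in the NTM blastulas, or 0.188% and 0.542% of 9033 tested. Over all 9033 the median difference was 0.87, and 2379 had an unadjusted p under 0.05 by limma. The few calls therefore do not show that the 2 kinds of blastula were alike. The counts of calls moved widely, to 1 and 0 without NTM blastula 1, NTM blastula 2, in vivo blastula 2 or in vivo blastula 3, to 46 and 1395 without NTM blastula 3 and to 53 and 966 on nuclear reads. The call of Phlda3 was lost in each of the first 4 of these (adjusted p = 0.0552 to 0.102). Among the named embryonic genes Nanog averaged 70.0 RPKM in vivo, Cdx2 37.1, Epcam 319 and Calcoco2 3229 RPKM, and none of the 4 passed against the NTM blastulas (adjusted p = 0.128 to 0.57). Among fibroblast genes Col1a1, Col3a1 and Dcn were at 0 in the in vivo blastulas as well. The levels in vivo came from libraries with 7730 to 7808 genes above 0, fewer than in the NTM blastulas, and the part of this in the levels was not tested. The 2 groups also differ in egg strain, NT, activation, Scriptaid and culture, which cannot be told apart here.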

How the data were processed

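Single-embryo and cell libraries were amplified by tailing, with no molecular identifiers. The authors deposited 1 table of RPKM values for all 60 samples and 27238 genes, read counts per gene having been scaled by exon length and by the reads on genes. By the methods of the study reads were mapped with TopHat and counted with HTSeq, whereas the submitters' processing notes name Bowtie 0.12.2 and mm8. Samples were grouped by their labels. Genes were placed by GENCODE M21 (27056 matched). Depth was recovered from the steps between RPKM values, and 79.1% to 83.2% of the low values of these 6 libraries were whole reads within 0.05, too few for a count test.

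Genes with a mean of at least 0.5 RPKM in the libraries compared were tested with limma 3.58.1 in R 4.3.3 (intensity trend) on log2(RPKM + 1), with Benjamini-Hochberg adjustment over all genes tested. X, Y and mitochondrial genes stayed in the fit and were left out of the counts. Where the interaction was tested, all 4 groups entered 1 fit. The script was tested on simulated data.

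Genes were named by rule: the 10 largest falls and rises called with no overlap, the 3 largest of each direction and up to 3 against the trend in each of 27 lists, a set of marker genes, the 5 MEF-over-CC genes highest in NTM blastulas and the 5 highest genes at 0 in the other group. Members that complete a count of 5 or fewer were named after their values were seen. Members and lists were chosen with earlier results of these data known. Promoters matched 73.0% of the genes tested, so promoter features of the called genes were not compared. A few genes that the naming rule picks are not reported here.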

Additional observations from a re-analysis of the deposited data

Results flagged for a closer look

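The change from donor to blastula differed between the NT types, by limma's interaction term over 4 groups of 3 libraries, for 464 autosomal genes with a more negative and 207 with a more positive change in NTM than in NTC (3.85% and 1.72% of those tested). The named genes among them are given here on the log2(RPKM + 1) scale, each with an adjusted p under 0.05. Matrix genes had Col1a1 -10.23, Dcn -10.06, Col3a1 -9.86, Serpinf1 -9.59, Col1a2 -9.15, Ptx3 -6.79 and Sparc -4.43. In surface proteins and receptors the values were -7.35 for Cdh11, -7.15 for Cd248, -5.42 for Pdgfrb, -5.25 for Thy1, -5.09 for Tgfbr3, -4.22 for Pdgfra and -3.44 for Flt1. Transcription factors gave -5.08 for Snai2, -4.88 for Prrx1, -4.17 for Klf4, -3.33 for Twist1, -3.02 for Zfp57 and -2.30 for Egr1.

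Cytoskeletal genes gave -9.25 for Acta2, -7.62 for Tagln, -7.53 for Ccn1 and -4.82 for Csrp1. Chemokines and class I gave -9.73 for Ccl2, -9.62 for Ccl7, -9.26 for Cxcl5, -6.57 for Cxcl1 and -2.16 for B2m. Further negative values were -8.46 for Cdkn1c, -8.26 for Igfbp3, -8.03 for H19, -5.45 for Phlda3, -4.31 for Rnf115, -4.12 for Rab21 and -3.42 for Rras2. In most of these the blastula levels were low in both NT types and the MEF level stood above the CC level, as for Ccl2 at 1.92 RPKM in CCs and 0 in the NTC blastulas.

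Positive values were 6.54 for Krt18, 6.08 for Gata4, 5.28 for Krt8, 4.42 for Gata6, 3.93 for Cdca8 and 3.34 for Rb1. CCs averaged 111 RPKM of Krt18, 66.3 of Gata4, 8.83 of Gata6, 14.9 of Cdca8 and 9.21 of Rb1. Gata4 was at 0 in the NTC blastulas, so its value is the fall from the CC level.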

How the results depend on the processing

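Of the 119 genes named and tested, 94 kept direction and call under all 16 settings that could be run for them, among them the collagens, Dcn, the chemokines, Nanog, Cdx2 and Epcam. In at least 1 setting 19 lost the call or turned, which were Kif20a, Cdkn1a, Hoxd8, H2-K1, Klf2, Dab2, Tet1, Rb1, Gab1, Kdm3b, Csrp1, Rnf115, Rab21, Rras2, Eng, Ddc, Fgfr4, Bmpr1a and Alpl. Kif20a and Cdkn1a turned: Kif20a to 0.42 without MEF replicate 1 and 0.083 without NTM blastula replicate 3 (leave-one-out range -2.58 to 0.42), Cdkn1a to 0.37 by median-ratio scaling, 0.40 on nuclear reads, 0.58 and 0.065 without MEF replicates 1 and 2, and 0.088 and 0.011 without NTM blastula replicates 1 and 3 (leave-one-out range -1.003 to 0.58). Klf4 and Phlda3, not called as deposited, were called under both other scalings, and Sox2, Esrrb, Igf2 and Loxl2 gained a call in at least 1 setting.

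Genes lower against MEFs numbered 1714 to 2215 and genes higher 801 to 1290 when 1 library was left out, and 1995 rose on nuclear reads, a setting chosen after seeing the data. In 1 fit over all 20 groups 2750 genes fell and 1901 rose from CC to NTC blastula, the interaction was negative for 1129 and positive for 560, and 15 genes were called between NTM and NTC blastulas, the last a setting also added later. Leaving out 1 library gave 911 to 1890 lower and 525 to 1196 higher for NTC against CC, the lowest of both without NTC blastula replicate 2, and 356 to 594 negative and 161 to 305 positive interactions. The median of the MEF-over-CC genes ran from -0.16 to 0.23. With a mean of at least 1 RPKM in place of 5, 756 genes were at 0 in MEFs and 1155 in NTM blastulas.

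Between NTM and in vivo blastulas, settings added after seeing the data gave 33 genes lower and 112 higher with a mean of at least 2 RPKM, 53 and 966 on nuclear reads, 57 and 1163 with a pseudocount of 0.1, 311 and 2017 in 1 fit over all 20 groups, 16 and 1 by median-ratio scaling, 1 and 0 with no filter and 7 and 1 with a replicate block. Leaving out 1 library gave 1 to 46 lower and 0 to 1395 higher, the highest of both without NTM blastula replicate 3. The cause was not tested.

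With the replicate number as a block 2277 genes fell and 1274 rose, 1275 and 865 for NTC against CC, and the interaction gave 408 and 197. Deviations of same-numbered MEF and NTM blastula libraries correlated at -0.0140, 0.0116 and -0.00993, so no pairing by number was seen in the values. A shared preparation that left no such trace would not be seen this way. The promoter alternative was not run, since under 80% of the genes matched a promoter. A 2000-base gene with 3 reads reads as 0.0314 to 0.0405 RPKM in a MEF library and 0.0725 to 0.0836 RPKM in an NTM blastula. The 3 reads were a choice for the bound of a gene at 0, and lower levels were read from fewer reads or longer genes. Such bounds cover counting error only.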

Other observations

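Several of the most abundant MEF genes were read in CCs at a near-constant small share of the MEF level: 0.0631% for Dcn, 0.0466% for Col1a1, 0.0750% for Ccl2, 0.0523% for Col3a1, 0.0609% for Serpinf1, 0.0575% for Ccl7 and 0.0590% for Cxcl5, as means of 3 libraries. In NTM blastulas these 7 genes were at 0. Of the 10 largest falls, Cxcl1, Egr1 and Fos stood apart, with 4.60%, 25.1% and 45.6% of the MEF level in CCs.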
